A study of Mus musculus with 16 samples.

Results

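Chromatin accessibility was compared in hematopoietic stem and progenitor cells (HSPCs) of 4 mouse genotypes that form a 2 by 2 design, in order to ask whether the effect of losing p300 differs between Tet2-null cells and cells with Tet2. Sorted bone marrow HSPCs were profiled by ATAC-seq, in which a transposase cuts open chromatin, and the data are 16 lists of peaks, 1 per library and 4 per genotype. WT mice carried floxed Ep300 alleles without Cre, and P300KO mice carried the same alleles with Mx1-Cre. TET2KO mice carried the floxed Ep300 alleles on a Tet2-/- background, and P300KO_TET2KO mice combined that background with Mx1-Cre. The Tet2 deletion was therefore constitutive, whereas the Ep300 deletion was induced. All 4 genotypes, WT included, received poly(I:C), the interferon inducer that switches on Mx1-Cre. They were on a C57BL/6 background and age-matched. The study's methods place the injections in young adult mice and the experiments soon after them or at other stated times, and do not say which of these applies to the ATAC-seq libraries. Each library pooled the HSPCs of 2 mice of the same genotype. Mx1-Cre is active in blood cells and other interferon-responsive cells, so the Ep300 deletion was not restricted to HSPCs. Both genotypes without p300 carried Cre and neither genotype with p300 did, so a p300 difference and an effect of Cre cannot be told apart.

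The interaction was the p300 difference without Tet2 minus the p300 difference with Tet2, that is (P300KO_TET2KO minus TET2KO) minus (P300KO minus WT). It is 0 where the effects of both losses add, positive where the double loss gives more accessibility than the sum of the single losses, and negative where it gives less. All 16 libraries entered it. The 50000 strongest peaks of each list were ranked by the −log10 p of the peak caller, and every peak received a percentile from 100 for the strongest down to near 0, with 0 for an absent peak. Overlapping peaks were merged into 79807 regions, of which 55989 were in at least 4 of the 16 lists and were tested. A difference is given below in percentile points of this rank. A rank is bounded at 0 and 100, holds no read counts, and measures where a region stands within its own list, so a change shared by all regions cannot be seen. In pooled cells, a change in the share of a cell type and a change in accessibility per cell cannot be told apart either.

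p300, the product of Ep300, is a lysine acetyltransferase and coactivator that is recruited to enhancers by transcription factors and acetylates histone H3 there. TET2 is a dioxygenase that oxidizes 5-methylcytosine and so promotes DNA demethylation, mostly at enhancers in blood cells. Both genes are mutated in human myeloid disease. Tet2 restrains the expansion and the myeloid bias of stem cells in mice. For p300, the study reports that Ep300 deletion raised HSPC numbers in Tet2-deficient mice but not in WT mice.

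The 16 libraries fell into 2 deposit sets of the labels, replicates 1 and 2 (set 1) and replicates 3 and 4 (set 2), with 2 libraries of each genotype in each. What differed between the sets is not stated. Full lists held 86039 to 110055 peaks in set 1 and 130610 to 137335 in set 2. WT replicate 1 stood apart. Its ranks correlated with those of WT replicate 2 with r = 0.816, against 0.891 to 0.966 for the other 7 pairs of libraries of the same genotype and set, and it was the only library with peaks at a −log10 q under 2 among the strongest 50000, namely 5651. The promoters of Kit, Cd34, Flt3, Gata2, Meis1 and Spi1 had a peak in 16 of 16 lists, whereas those of Cd3e, Ly6g, Ncr1, Ms4a1 and Klrb1c had one in too few lists to be tested. Ly6a, the gene of the Sca1 antigen used in sorting, had a promoter peak in 6 lists only. The deletions themselves cannot be checked in peak lists.

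No region passed the test for an interaction. The count was 0 of 55989 regions, 0% of those tested, in limma with Benjamini-Hochberg adjustment, where the lowest adjusted p was 0.323. At an unadjusted p under 0.05 there were 2959 regions, 5.28% of those tested, 1325 with a positive and 1634 with a negative interaction. The same held by gene. Of 14355 promoters, the strongest region within 1 kb of a start site of each gene, limma called 0, or 0%, and 801 (5.58%) had an unadjusted p under 0.05. Of 7325 gene neighbourhoods, the mean over at least 3 regions assigned to a gene within 100 kb, it called 0, or 0%, and 377 (5.15%) had an unadjusted p under 0.05. Other settings gave 0 to 6 regions, among them 4 with windows around summits, 2 without the trend and robust options together, namely those near Cdrt4 and in 6430548M08Rik, and 6 in set 2 alone.

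These zeros have a stated precision. The median 95% interval of an interaction reached 17.7 percentile points to either side at regions, 5.04 at promoters and 8.57 at neighbourhoods, before any adjustment over regions, promoters or neighbourhoods. After adjustment larger departures also went uncalled, as at the regions of 42.8 to 55.1 points described below. Errors differed between regions, and the intervals of the strongest peaks were narrower. The root mean square of the 55989 interactions was 9.52 points against a median standard error of 8.57. P-values measure the spread between libraries of pooled mice. The single losses did give calls in the same fit. For p300 loss, limma called 113 regions higher and 181 lower with Tet2 present, 0.525% of those tested, and 18 higher and 35 lower with Tet2 lost, 0.0947%. For Tet2 loss it called 29 regions with p300 present, 0.0518%, and 177 with p300 lost, 0.316%. A difference between such counts is not an interaction, and these contrasts share libraries. Without WT replicate 1 the counts were 582, 189, 64 and 399, in the same order.

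Across all regions, the interaction took a small share of the spread between libraries. The 15 degrees of freedom between 16 libraries were split into mean squares, in squared percentile points. The mean square was 500 for the deposit set, 196 for p300, 175 for Tet2, 90.6 for their interaction and 99.0 for the set by genotype terms, beside 81.4 between libraries of the same genotype and set. Expressed as a ratio to the last, the interaction stood at 1.11, set by genotype at 1.22, p300 at 2.41 and Tet2 at 2.15. Within set 1 the ratio of the interaction was 0.999 and within set 2 it was 1.23, whereas p300 had 1.37 and 3.11. Set 2 had the lower spread, with a mean square of 43.1 between libraries of the same genotype, against 120 in set 1.

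The effect of each loss was shared in part between backgrounds, whereas the interaction was nearly uncorrelated between the sets. The interaction computed in set 1 and that in set 2, which share no library, correlated with r = 0.0547 over 55989 regions, and 51.9% of 53824 regions with a value other than 0 in both had the same sign. The p300 effect averaged over both Tet2 backgrounds had r = 0.323 between the sets, and the Tet2 effect 0.233. The p300 effect with Tet2 present and that with Tet2 lost, which also share no library, had r = 0.374 over both sets and the same sign in 60.9% of regions. By set, this r was 0.16 in set 1, which holds WT replicate 1, and 0.432 in set 2. Regions of a library share its depth and its list, so these correlations are descriptions across regions and not tests.

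**Figure D1:**
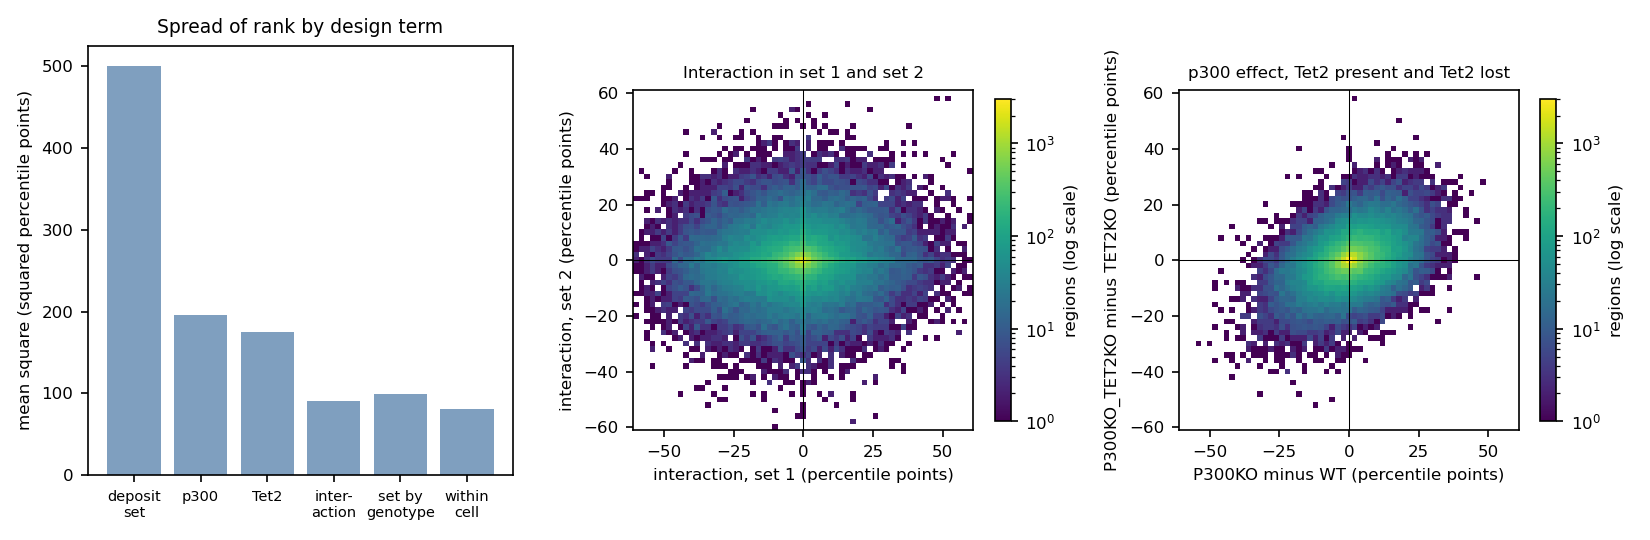
Left, mean square of the rank percentile over 55989 tested regions for each design term (squared percentile points; the axis starts at 0). Middle and right, number of regions per cell of 2 by 2 points (colour, log scale) for the interaction in set 1 against set 2 and for P300KO minus WT against P300KO_TET2KO minus TET2KO, both in percentile points; 59 and 1 regions lie outside the axes. The interaction bar of 90.6 stands near the bar of 81.4 between like libraries, the middle cloud is wider along set 1 than set 2 and shows little tilt, with r = 0.0547, and the right cloud is tilted with r = 0.374.

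Regions called for the loss of p300 over both backgrounds moved alike with and without Tet2. Limma called 566 regions higher without p300, 1.01% of those tested, and 652 lower, 1.16%. At the 566 the median p300 difference was 20.3 points with Tet2 present and 18.3 with Tet2 lost, and both had the same sign in 564. At the 652 it was -19.5 and -15.1, with the same sign in 648, and it was smaller in size with Tet2 lost in 442. The median interaction at the 566 was -6.31 in set 1 and 0.410 in set 2, and at the 652 it was 3.07 and 2.85. The regions were called on the mean of these same differences, so their agreement in sign is a description. An unadjusted p under 0.05 for the interaction was found at 61 of the 566 (10.8%) and 85 of the 652 (13.0%). Both shares lie above the 5.28% of all regions. The calls and the interaction test share the same error estimate, and its part in these shares was not tested.

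Regions called for the loss of Tet2 over both backgrounds also moved the same way with and without p300. Limma called 245 regions higher without Tet2, 0.438% of those tested, and 229 lower, 0.409%. Without WT replicate 1 the calls in both directions together numbered 748 for Tet2 loss and 2066 for p300 loss, and in set 1 alone they numbered 12 and 0. The 245 had a median Tet2 difference of 20.8 points with p300 present and 25.9 with p300 lost, and all 245 had the same sign in both backgrounds. The 229 had a median Tet2 difference of -22.0 with p300 present and -26.9 with p300 lost, and 228 had the same sign. Their median interaction was -7.32 points, and 57 of them (24.9%) had an unadjusted p under 0.05, against 24 of the 245 (9.80%) and 5.28% of all regions. As for p300, the calls and the interaction test share the same error estimate, and its part in these shares was not tested. The set mattered here. Among the 245, the median Tet2 difference in set 1 was 26.3 points with p300 present and 25.7 with p300 lost, and in set 2 it was 12.3 and 21.01. Their median interaction was -0.433 in set 1 and 8.19 in set 2, and among the 229 it was -3.19 and -11.4. Without WT replicate 1 the medians were 5.92 and -6.09.

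Few regions were called for both losses. There were 12 regions higher with either loss and 35 lower with either. At the 35, WT had a median rank of 81.2, P300KO 74.4, TET2KO 71.9 and P300KO_TET2KO 52.4. The double mutant minus WT had a median of -29.0 points, beside -14.3 for the sum of both single differences. For the interaction, 23 of the 35 (65.7%) reached an unadjusted p under 0.05, against 5.28% of all regions, and the median interaction was -5.89 in set 1 and -13.9 in set 2. These 35 were narrow, with a median width of 607 bp against 820 bp for all tested regions, 24 were in all 16 lists, and 4 matched annotated ribosomal RNA loci, described below. The 12 higher regions had a median rank of 2.44 in WT and 53.3 in P300KO_TET2KO, and the double mutant minus WT had a median of 44.2 points beside 32.9 for the sum of the single differences. Their median interaction was nonetheless -2.63 points, beside -0.802 without WT replicate 1, 3.16 in set 1 and 10.9 in set 2, so its direction changed with the libraries used. An unadjusted p under 0.05 was found at 5 of these 12 (41.7%). The calls for both losses share the error estimate of the interaction test, so the shares at the 35 and the 12 are descriptions. The part of that estimate in them was not tested. At the 2 regions higher without p300 and lower without Tet2, and at the 6 with the opposite signs, the median of the double mutant minus WT was 1.72 and 0.758 points, beside 12.2 and -6.84 for the sum of the single differences. The double mutant minus WT is the sum of both averaged effects, and these regions were chosen for opposite signs of those effects, so values near 0 follow from the choice.

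**Figure D2:**
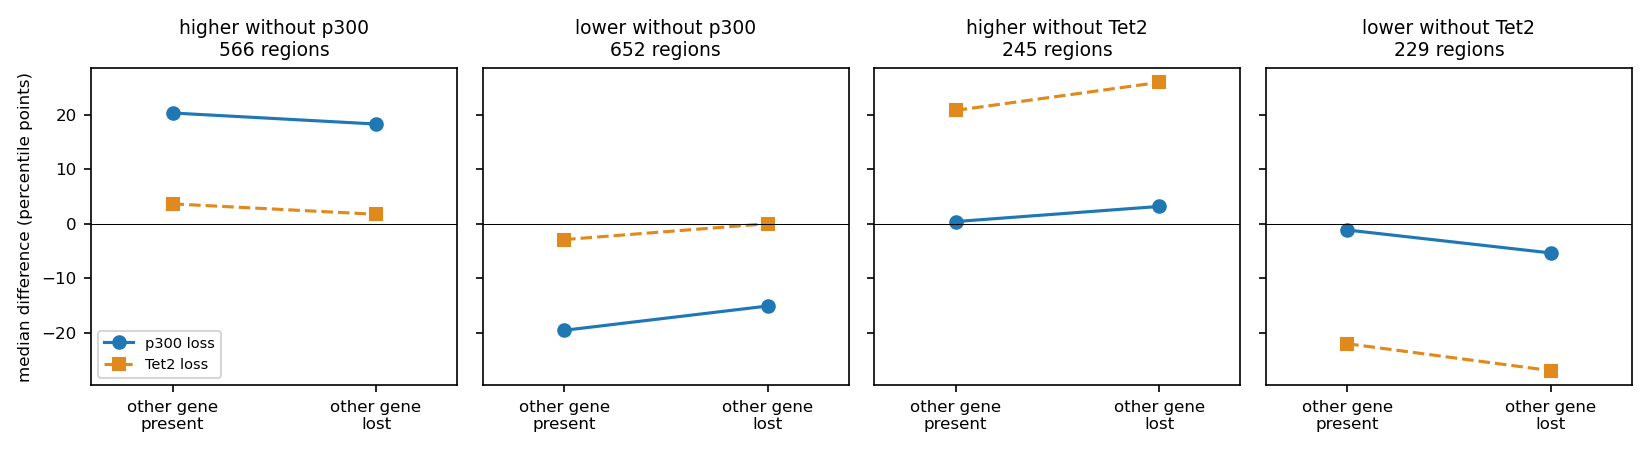
Median difference in rank (percentile points, y axis) for p300 loss (circles, solid) and Tet2 loss (squares, dashed) with the other gene present and lost, in the regions called for each loss over both backgrounds. Flat lines are additive: the p300 line goes from 20.3 to 18.3 at the 566 regions, and the Tet2 line from -22.0 to -26.9 at the 229.

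The regions with the strongest departures from additivity, 12 in each direction, are described next, by genotype pattern. They had the highest and lowest moderated t among regions with the same sign of interaction in both sets, and were named by the gene they lie in or else the nearest start site of a protein-coding gene. None passed the adjusted threshold over 55989 regions, so their values are descriptions. The last positive region, near Spag9, had a t of 3.89, and the next, near Chga, 3.83; on the negative side, Bnc2 had -4.20 and Paqr7 -4.18.

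A peak near Cdrt4 was high in the double mutant alone. The region lies in intergenic sequence at chr11:62929672-62930312 of GRCm38/mm10, 20881 bp from the nearest start site. Its rank was 0 in 4 of 4 WT libraries. The P300KO libraries had 0, 22.5, 6.89 and 9.76 in replicates 1 to 4, and the TET2KO libraries 0, 4.59, 0 and 0. P300KO_TET2KO had 64.4, 67.3, 74.1 and 58.5. All 4 double mutant libraries stood above the other 12 with no overlap. The interaction was 55.1 points (SE 9.76, 95% interval 35.0 to 75.2, limma adjusted p = 0.323). A peak was present in the full lists of 2 of 4 WT libraries and of 4 of 4 in each other genotype, so the zeros stand for weak or missing peaks.

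A further 3 positive regions had this shape. Near Tnp1, which encodes a transition protein of sperm chromatin, P300KO_TET2KO had 47.7, 39.7, 52.7 and 39.0, whereas WT and P300KO were at 0 in 8 of 8 libraries and TET2KO had 21.1, 4.59, 0 and 7.96. Near Sipa1l1, whose product activates the GTPase of Rap proteins, P300KO_TET2KO had 21.2, 38.1, 25.3 and 19.1, against 0 to 4.13 in the other 12 libraries. Near the start of Spag9, a scaffold of JNK signalling, it had 22.5, 38.5, 37.4 and 22.7, against 0 to 6.34. The groups did not overlap at any of these 3 regions. Tnp1 and Sipa1l1 were in 7 lists and Spag9 in 6, so each passed the filter of 4 lists only through the double mutant, and the separation is in part given by that filter. With all peaks of the lists ranked, the interaction near Spag9 was -6.40 in place of 28.3.

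The sequences below are the 121 bases around the summits of these 4 regions on the forward strand of GRCm38/mm10, shown because they carry peaks that ranked among the strongest 50000 mainly in the double mutant. In the full lists, peaks were also present in 2 to 4 libraries of each other genotype. Capitals mark strings searched on both strands. Gata factors were searched by the string AGATAA and also by the string TGATAA, Ets factors by AGGAAGT, and Runx factors by the string TGTGGT and also by the string TGCGGT. Cebp was searched by TTGCNNAA, Ap1 by the string TGACTCA and also by the string TGAGTCA, Tal1 by CAGATG, Myb by the string CAACTG and also by the string CAACGG, and Ctcf by its core motif. In windows of 121 bases around the summits of all 55989 tested regions, the Gata strings were found in 7.54%, Ets in 14.4%, Runx in 20.6%, Ap1 in 4.11% and Tal1 in 9.93%. Gata strings were in 3 of the 4 windows, and no printed string overlaps another. A string is a match of letters and not a binding site.
Cdrt4, chr11:62929982-62930102: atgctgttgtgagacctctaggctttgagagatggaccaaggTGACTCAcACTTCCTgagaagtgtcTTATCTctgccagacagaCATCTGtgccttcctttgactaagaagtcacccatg
Tnp1, chr1:73072654-73072774: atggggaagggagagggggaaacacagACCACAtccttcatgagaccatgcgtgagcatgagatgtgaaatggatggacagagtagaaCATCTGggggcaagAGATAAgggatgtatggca
Sipa1l1, chr12:82151189-82151309: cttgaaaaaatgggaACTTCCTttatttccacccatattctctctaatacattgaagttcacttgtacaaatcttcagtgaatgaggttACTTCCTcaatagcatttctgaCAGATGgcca
Spag9, chr11:94070574-94070694: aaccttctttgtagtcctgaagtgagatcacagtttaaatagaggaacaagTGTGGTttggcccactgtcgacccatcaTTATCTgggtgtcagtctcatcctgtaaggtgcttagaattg

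WT stood apart at 2 positive regions, where the rank was above 0 in all WT libraries and 0 to 5.52 in both single mutants. An intronic region of 6430548M08Rik, at chr8:120137409-120138319, had ranks of 29.3, 21, 36.7 and 34.5 in WT and 0 in 12 of 12 libraries of the other genotypes. With peaks in 4 lists only, it passed the filter of 4 lists through WT alone, so its difference from WT was given by the filter and is a description. Its p300 difference was -30.4 with Tet2 present and 0 with Tet2 lost, where no rank was left to fall, and the interaction was 30.4 (SE 6.72, limma adjusted p = 0.820). In the full lists it had a peak in 4 WT, 3 P300KO, 4 TET2KO and 3 P300KO_TET2KO libraries, so most of the zeros mean that the peak ranked below the 50000 used. In an intron of Ntrk3, the neurotrophin-3 receptor, WT had 38.8, 19.8, 27.1 and 24.9, P300KO 0 in all 4, TET2KO 0, 0, 5.52 and 0, and the double mutant 0, 0.59, 5.52 and 21.4. There WT and P300KO_TET2KO overlapped through 1 library each.

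At the other 6 positive regions the p300 difference was negative with Tet2 present and smaller in size or positive with Tet2 lost. Near Mlec, a carbohydrate-binding protein of the endoplasmic reticulum, WT had 84.7, 77.5, 88.0 and 78.8 and P300KO 50.03, 57.8, 52.5 and 50.3. TET2KO had 75.9, 78.7, 78.4 and 78.4 and P300KO_TET2KO 66.3, 63.7, 70.2 and 68.2. Libraries without p300 were below those with p300 in both backgrounds, with no overlap. The p300 difference was -29.6 with Tet2 (limma adjusted p = 2.51e-05) and -10.7 without it (adjusted p = 0.201), and the interaction was 18.9 (SE 4.21, adjusted p = 0.820).

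Irf2 encodes an interferon regulatory factor that counteracts Irf1. In a region 44018 bp from its start, WT had 53.2, 58.5, 49.7 and 39.4 and P300KO 2.60, 16, 0 and 0. TET2KO had 32.4, 32.0, 35.5 and 28.1 and P300KO_TET2KO 33.3, 18.4, 31.2 and 28.8. The p300 difference was -45.5 points with Tet2 present (limma adjusted p = 0.00516) and -4.08 with Tet2 lost (adjusted p = 0.964), where the groups overlapped. The interaction was 41.5 points (SE 10.1, adjusted p = 0.918). The region near Pabpc1, a poly(A)-binding protein, had an interaction of 42.8 (SE 11.0), but it was 68.7 in set 1 and 16.9 in set 2. Its sequence matched that near Irf2 over 149 bases at 80.5% identity, so these regions share a repeated sequence. Rassf3 had 47.1 (SE 11.3), Seh1l 6.53 (SE 1.62) and Cdkn1a 5.29 (SE 1.32).

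The Cdkn1a region is the promoter of p21, a cyclin-dependent kinase inhibitor. WT had 94.7, 96.4, 94.96 and 95.6, P300KO 90.1, 91.9, 93.4 and 90.7, TET2KO 93.4, 91.7, 94.0 and 94.0, and P300KO_TET2KO 95.5, 94.7, 93.9 and 94.5. The promoter was among the strongest peaks of every library. All 4 P300KO libraries were below all 4 WT libraries, whereas TET2KO and P300KO_TET2KO overlapped.

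**Figure D3:**
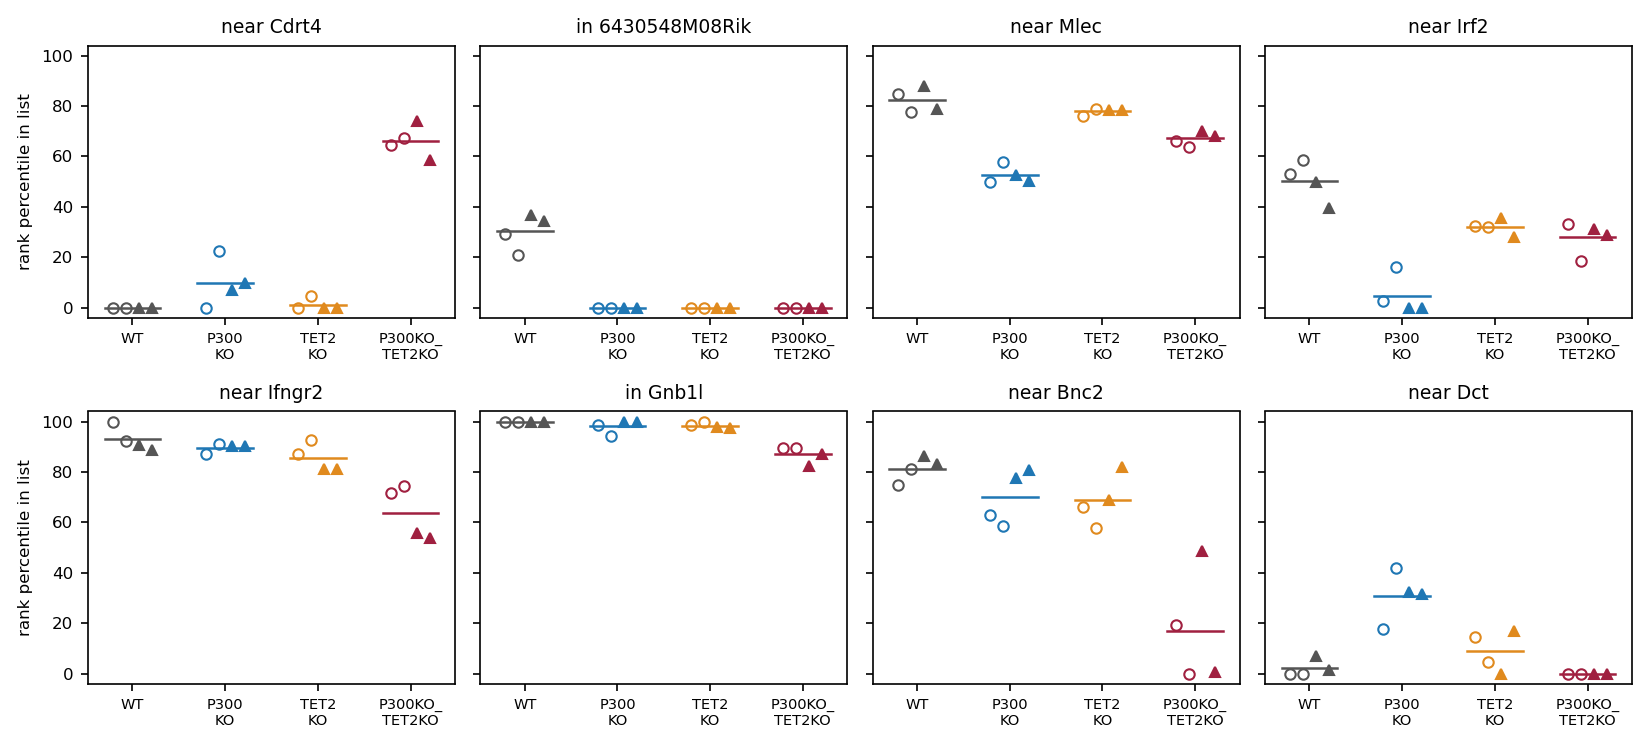
Rank percentile (y axis, 0 to 100) in each of the 16 libraries at 8 of the 24 named regions; open circles are set 1, filled triangles set 2 and lines the genotype means of 4 libraries. The peak near Cdrt4 is at 58.5 to 74.1 in P300KO_TET2KO and at most 22.5 elsewhere, that in 6430548M08Rik is above 0 in WT alone, and those near Ifngr2, Gnb1l and Bnc2 are lowest in P300KO_TET2KO.

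On the negative side, 11 of the 12 regions were low in the double mutant alone. Near Ifngr2, a subunit of the interferon gamma receptor, WT had 99.9, 92.1, 90.8 and 88.8, P300KO 87.1, 91.0, 90.5 and 90.2, and TET2KO 87.1, 92.6, 81.0 and 81.3. P300KO_TET2KO had 71.6, 74.5, 55.9 and 53.7, below all other libraries. The p300 difference was -3.20 with Tet2 present (limma adjusted p = 0.602) and -21.6 with Tet2 lost (adjusted p = 0.000622), and the interaction was -18.4 (SE 3.86, adjusted p = 0.820). Near Bnc2, a zinc finger gene, WT had 74.7, 81.0, 86.2 and 83.0, and both single mutants 58.0 to 82.0. The double mutant had 19.4, 0, 48.4 and 0.535, again with no overlap.

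The most negative t was in an intron of Gnb1l. WT had 100.0, 99.9, 100.0 and 99.7 there, P300KO 98.8, 94.3, 100.0 and 99.9, TET2KO 98.6, 99.8, 98.0 and 97.4, and P300KO_TET2KO 89.5, 89.6, 82.5 and 87.3. The interaction of -9.61 points (SE 1.80, adjusted p = 0.323) became 0.0035 when peaks were ranked by fold enrichment in place of −log10 p, and that near Alkbh8, a tRNA methyltransferase, went from -8.42 to 0.0105. Regions near Igf2bp3, 9530002B09Rik, Cd209a, Peak1 and within Jarid2, a subunit of polycomb repressive complex 2, had the same shape with interactions of -11.3 to -6.96, as did Btbd35f28 (-42.6) and Zfp945 (-28.6). At Gnb1l, Alkbh8, Igf2bp3, 9530002B09Rik, Cd209a and Peak1 the WT and single mutant means were 96.8 to 99.96. They stood close to the upper bound of the scale, where ranks are tied closely. In set 2 alone, Igf2bp3, Ifngr2, Cd209a and Zfp945 were 4 of the 6 regions limma called.

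Dct, which encodes an enzyme of melanin synthesis, was the exception. The intergenic region lies 21508 bp from its start. WT had 0, 0, 6.86 and 1.43, P300KO 17.8, 42.0, 32.4 and 31.7, TET2KO 14.5, 4.59, 0 and 17, and P300KO_TET2KO 0 in 4 of 4. P300KO was above all other libraries with no overlap. A p300 difference of 28.9 points with Tet2 present (limma adjusted p = 0.0314) stood beside -9.02 with Tet2 lost (adjusted p = 0.787), for an interaction of -37.9 (SE 8.52, adjusted p = 0.820).

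Windows of 121 bases at 4 of these regions, on the forward strand of GRCm38/mm10, are given to show how the negative group differs in sequence. The capitals again mark the searched strings. The Gnb1l window holds none and is part of a copy of the 18S ribosomal RNA locus, the Ifngr2 window holds 1 Runx string, and the Bnc2 window holds a Runx and a Myb string. The Dct window holds 2 Cebp strings. Cebp strings were in 5.001% and Myb strings in 7.92% of the windows of all tested regions.
Gnb1l, chr16:18533198-18533318: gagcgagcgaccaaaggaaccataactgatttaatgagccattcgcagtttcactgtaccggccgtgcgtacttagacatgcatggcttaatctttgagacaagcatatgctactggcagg
Ifngr2, chr16:91534601-91534721: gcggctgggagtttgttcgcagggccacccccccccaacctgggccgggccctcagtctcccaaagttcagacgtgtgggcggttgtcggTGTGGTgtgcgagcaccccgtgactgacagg
Bnc2, chr4:84685792-84685912: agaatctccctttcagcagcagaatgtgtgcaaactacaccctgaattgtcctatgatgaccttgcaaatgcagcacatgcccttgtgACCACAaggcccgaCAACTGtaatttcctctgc
Dct, chr14:118005811-118005931: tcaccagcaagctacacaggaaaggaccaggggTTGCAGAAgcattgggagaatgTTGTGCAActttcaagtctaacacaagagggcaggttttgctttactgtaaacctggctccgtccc

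The negative regions were narrow, strong and often copies of sequences found elsewhere. Their median width was 349.5 bp (229 to 736), against 820 bp for the 12 positive regions and for all tested regions, and 9 of 12 were in all 16 lists, against 3 of 12. Of the 12, 4 matched annotated ribosomal RNA loci and none of the positive ones did. The loci searched were Gm26917 (3329 bases), Rn18s-rs5 (1849 bases) and Rn28s1 (420 bases only). Copies of ribosomal RNA sequence outside these loci were not counted, so more of the regions may hold such sequence. Gnb1l matched Rn18s-rs5 at 100% over 138 bp, Cd209a the same locus at 83.3% over 378 bp, 9530002B09Rik matched Rn28s1 at 78.3% over 253 bp and Zfp945 at 89.8% over 49 bp. Jarid2 and Alkbh8 matched each other over 111 bp at 78.4%, and Alkbh8 and Btbd35f28 over 59 bp at 86.4%. Among the 28135 regions in all 16 lists, 64.5% of the 543 no wider than 400 bp had an interaction below 0 and 6.81% had one with an unadjusted p under 0.05, whereas of the 2321 wider than 1600 bp these were 46.7% and 1.72%. Width and rank go together in a peak list, so this is a description.

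In all, 8 tested regions matched annotated ribosomal RNA loci, and all 8 had a negative interaction, beside 53.6% of all tested regions. The count is limited to the loci searched, of which Rn28s1 held 420 bases, and may miss other ribosomal copies. The median over the 8 was -10.1 points, and 5 had an unadjusted p under 0.05. Their median rank was 98.3, 88.3, 88.5 and 85.1 in WT, 86.3, 84.9, 89.0 and 88.4 in P300KO, and 86.0, 90.1, 81.4 and 82.2 in TET2KO. It was 73.8, 68.0, 49.98 and 57.2 in P300KO_TET2KO, lower than in the other 12 libraries without overlap. A further 14 regions matched mitochondrial DNA, with 12 of 14 interactions below 0, a median of -3.45 and 5 at an unadjusted p under 0.05. Their median rank per library was 98.2, 94.2, 85.3 and 92.2 in P300KO_TET2KO and 91.9 to 99.6 in the other 12 libraries, which overlapped. These classes were formed after their values were seen, and reads from other copies of a sequence cannot be told apart in peak lists.

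The double mutant lists also differed as lists. Their weakest peak among the 50000 had a −log10 p of 13.6 to 21.7 in set 1, against 4.11 to 10.1 in the other 3 genotypes, and of 56.1 to 64.1 in set 2, against 34.8 to 53.9. Their floors were thus above those of all other libraries within both sets. Whether signal to background or depth has a part in the low ranks of ribosomal copies in P300KO_TET2KO was not tested.

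**Figure D4:**
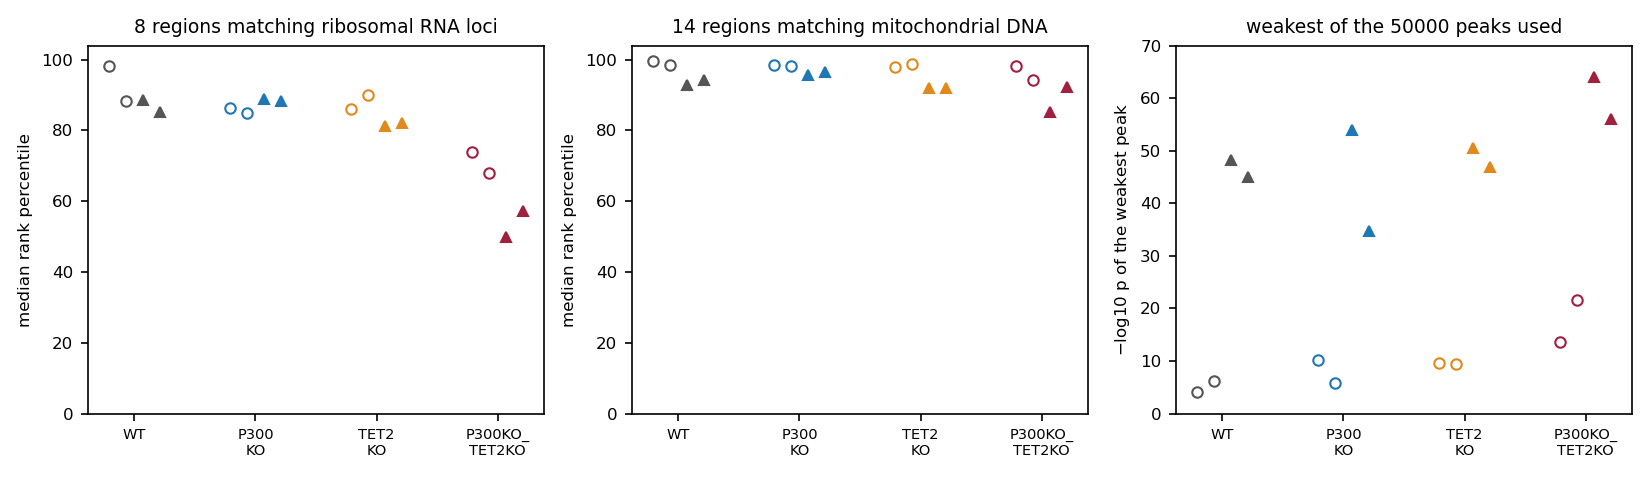
Median rank percentile per library of the 8 tested regions that match ribosomal RNA loci (left) and the 14 that match mitochondrial DNA (middle), and the −log10 p of the weakest of the 50000 peaks used (right); open circles are set 1 and filled triangles set 2. In the left panel P300KO_TET2KO is at 49.98 to 73.8 and all other libraries are at 81.4 to 98.3, and in the right panel it is highest within each set.

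Most regions with an unadjusted p under 0.05 had no single genotype apart. Of the 2959, 2026 (68.5%) were mixed, against 77.3% of all tested regions. WT stood apart at the most, low at 240 (8.11%, against 5.89% of all tested) and high at 175 (5.91%, against 3.21%). The WT means include WT replicate 1, whose median rank over all tested regions was 38.5, against 42.0 to 43.4 in the other libraries. The patterns were not recomputed without it. P300KO_TET2KO was apart and high at 130 (4.39%, against 2.96%) and low at 64 (2.16%, against 1.69%). P300KO was high at 155 (5.24%, against 2.91%) and low at 98 (3.31%, against 2.54%). TET2KO was high at 37 (1.25%, against 2.06%) and low at 34 (1.15%, against 1.48%), below its shares of all tested regions. A genotype was counted as apart where the range of the other 3 means did not exceed its distance to the nearest of them divided by 2. By position, the share of unadjusted calls was 5.04% in exons, 5.12% within 3 kb of a start site, 5.29% in introns and 5.64% in intergenic sequence. On the X chromosome it was 7.51% (84 of 1119 regions), with a median interaction of -1.14 points, and on the Y chromosome it was 17.6% (3 of only 17), with a median of 8.01. The sexes of the pooled mice are not given, a peak at the start of Xist was found in 15 of 16 lists, all but WT replicate 1, which also had the most peaks on the Y chromosome (35, against 1 to 22), and a part of sex in these shares was not tested.

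The interaction was also set beside the searched strings. Among regions more than 3 kb from a start site, the median interaction was -0.295 at 4908 with a Gata string within 100 bp of the summit and -0.974 at 25452 without. The values were 0.206 and -1.19 for Ets, -0.301 and -1.16 for Runx, -1.03 and -0.852 for Cebp, and -0.563 and -0.921 for Myb. The largest gap was at Ctcf, with -2.86 at 3145 regions with the string and -0.654 without. As a single value per library, the share of distal peaks with a Ctcf string was 9.64% ± 1.43 (SD, n = 4) for WT. P300KO had 10.9% ± 0.534, TET2KO 10.9% ± 0.323 and P300KO_TET2KO 10.9% ± 0.522. The interaction was -1.24 percentage points (exact permutation of the p300 labels within Tet2 background and set, two-sided p = 0.105, adjusted over 8 strings 0.840; the smallest p that the design allows is 0.00154). WT replicate 1 had the lowest share, 7.67%, and without it the interaction was -0.687 points. The other 7 strings had interactions of -0.368 to 0.179 points and adjusted exact p of 0.998.

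The share of distal peaks and the width of peaks gave no called interaction either. Distal peaks made up 52.2% ± 1.36 (SD, n = 4) of the strongest 50000 for WT. P300KO had 52.1% ± 1.28, TET2KO 51.8% ± 1.33 and P300KO_TET2KO 52.0% ± 1.198. The interaction was 0.351 percentage points (exact permutation p = 0.406). With all peaks of the lists, whose number differed between libraries, it was 2.42 points (exact permutation p = 0.00309). The median width was 509.9 bp ± 145 in WT and 645 bp ± 19.6 in the double mutant, with an interaction of 31.1 bp (exact permutation p = 0.647).

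By promoter, the 8 strongest positive interactions were at genes whose P300KO mean was below that of WT. Besides Cdkn1a and Seh1l, a nuclear pore subunit, they were Mpp4 (28.5 points, SE 6.94), Dnajb3 (28.2, SE 7.17), Trp53inp2 (6.98), Ppara, a nuclear receptor of lipid metabolism (13.4), Ubac1 (6.06) and Galnt12, a glycosyltransferase (36.4). At Mpp4, WT had 65.0, 61.4, 73.2 and 60.05 and P300KO 23.0, 23.4, 46.6 and 50.6, without overlap, whereas TET2KO with 48.7 to 65.9 and P300KO_TET2KO with 44.9 to 62.6 overlapped. At Ppara, WT had 70.1 to 83.6, P300KO 59.3 to 67.0, TET2KO 76.4 to 83.8 and P300KO_TET2KO 72.2 to 83.9. By their means, both promoters were lowest in P300KO.

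The strongest negative interactions among promoters were at Paqr7, a membrane progestin receptor (-12.6, SE 2.80), Tmem95 (-10.1), Mthfsd (-8.72), Gm21969 (-26.5), Lcorl (-3.91), Endou, an endoribonuclease (-18.2, SE 5.35), Usp11, a deubiquitinase (-7.23), and the metallothionein Mt3 (-37.6, SE 11.6). Limma adjusted p was 0.885 at all 16 of these promoters. At Paqr7, WT had 67.9, 71.2, 65.0 and 69.1 and the other 12 libraries 71.9 to 83.9, so all 3 mutant genotypes were above WT and the double mutant was not above P300KO. At Endou, P300KO_TET2KO had 39.4, 37.7, 49.0 and 47.9, below the 63.1 to 84.7 of all others. At Mt3, WT replicates 1 and 2 were at 0 and all other libraries at 46.6 to 71.9, and the interaction was -59.1 in set 1 and -16.1 in set 2.

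The neighbourhoods with the highest t were those of Pabpc2, Ccdc149, Phospho1, Itgb4, the fibronectin gene Fn1, N6amt1, Srpk2 and Rnaseh2b, with interactions of 11.6 to 19.4 points. The lowest were Krtdap, Slc16a14, Plekhm2, Cog3, Ccdc90b, Grpel1, Gfra3 and Mok, with -20.4 to -11.1. Limma adjusted p was 0.936 at all 16. At Pabpc2, WT had 66.7, 53.9, 55.0 and 49.1, P300KO 22.3 to 36.0, TET2KO 30.5 to 47.7 and P300KO_TET2KO 26.0 to 36.8, so WT stood above the other 12 libraries. This interaction of 19.4 (SE 4.05) became -4.65 with lists of 80000 peaks. Phospho1, a phosphatase of mineralizing bone, was highest in P300KO_TET2KO, with 50.5, 40.2, 44.4 and 44.7 against 27.2 to 40.02 in the others.

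At the loci the study follows, the 95% interval of every interaction included 0. The Myb promoter, the start of a transcription factor gene of progenitor growth, had 2.66 points (SE 6.22) and its neighbourhood -0.307 (SE 3.07), and at the neighbourhood P300KO had 23.5 to 26.7 and P300KO_TET2KO 24.4 to 25.6, against 17.8 to 23.0 in WT and 17.9 to 22.5 in TET2KO. The p300 difference there was 5.10 points with Tet2 (limma adjusted p = 0.229) and 4.80 without it (adjusted p = 0.476), so neither passed the test, although the genotypes with and without p300 did not overlap. Notch1, a receptor of lymphoid fate, had 3.55 (SE 1.99) at the promoter and -0.514 (SE 3.16) in its neighbourhood, and Dntt, the template-independent DNA polymerase of lymphoid progenitors, had 3.99 (SE 3.64) in its neighbourhood. Ep300 had -1.27 (SE 2.67) and 3.73 (SE 5.30), and Tet2 -2.12 (SE 2.71) and -5.94 (SE 3.24). Among Hoxb promoters, Hoxb4, a regulator of stem cell self-renewal, had 2.60 (SE 2.59), Hoxb5 -17.1 (SE 11.0), Hoxb3 -7.57 (SE 12.7), Hoxb1 -5.27 (SE 14.2), Hoxb9 -3.41 (SE 9.61) and Hoxb2 -2.16 (SE 7.96). The direction at the promoters of Ep300, Hoxb1, Hoxb2, Hoxb3, Hoxb4 and Hoxb9 and at the neighbourhoods of Myb, Notch1, Dntt and Tet2 changed with the set, the left out library, the promoter width or the number of peaks.

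No member of 21 gene lists was called for the interaction, at the promoter or the neighbourhood, beside 0% of all genes at both levels. The lists hold 468 genes of HSPC regulation, lineage and signalling. Promoter medians ran from -3.23 points for Hox genes to 2.33 for T and NK cell genes, against 0.058 for all promoters, and neighbourhood medians from -5.09 for Hox genes to 2.58 for erythroid genes, against -1.003. Of 14 Hox promoters 11 were below 0. Among 24 interferon response promoters 18 were below 0, with a median of -1.197. Isg15 had -15.1 (SE 10.2), or 1.74 with starts within 3 kb. Its value came from set 1 alone (-30.1), where WT replicate 1 was at 0, since every set 2 library was at 0. At interferon response neighbourhoods 6 of 11 were below 0 and 5 above, with a median of -1.09. Among 24 NF-kB and TNF promoters 16 were below 0, with a median of -1.38 and Ccl4 at 16.02 (SE 7.78). The monocyte and granulocyte regulators had a promoter median of 1.66, 13 of 20 above 0, with the cytokine receptors Csf3r at 10.8 (SE 4.20) and Csf2rb at 11.4 (SE 4.67). Stem cell regulators had -0.417, 12 of 25 above 0, with Erg at 10.1 (SE 4.65; 0.557 in set 1 and 19.6 in set 2), and the Notch pathway -0.392, 10 of 24 above 0. Acetyltransferase and deacetylase genes had -0.583 and DNA methylation genes 0.655.

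**Figure D5:**
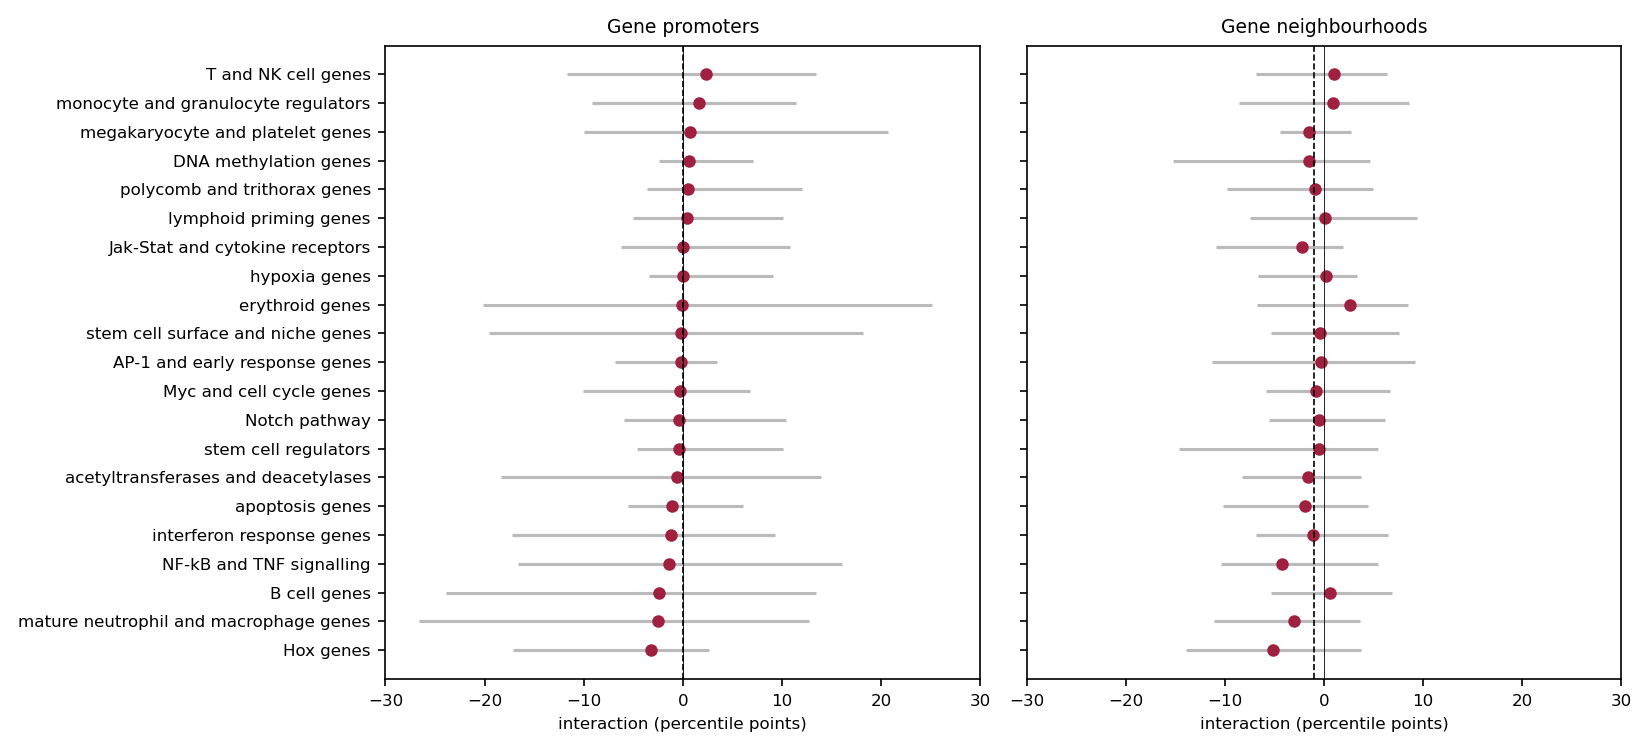
Median (point) and range (line) of the interaction, in percentile points, over the tested members of 21 gene lists, at promoters (left) and neighbourhoods (right); the solid line is 0 and the dashed line the median of all genes tested, 0.058 and -1.003. List medians lie from -3.23 to 2.33 at promoters and from -5.09 to 2.58 at neighbourhoods, and all 42 ranges cross 0.

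Members of the lists that limma called for a single loss had the same sign in both backgrounds, which the calls on the mean of both favour, so this is a description. Over all genes, 44 promoters (0.307%) and 294 neighbourhoods (4.01%) were called for p300 loss, and 68 (0.474%) and 85 (1.16%) for Tet2 loss. The only list promoter called for p300 was that of Mx1, an interferon-induced GTPase. WT had 69.99, 57.3, 48.3 and 51.9 and TET2KO 57.9, 48.7, 57.8 and 54.8, whereas P300KO had 83.0, 75.2, 83.4 and 85.2 and P300KO_TET2KO 79.2, 80.0, 88.3 and 86.0. Both genotypes with Cre were above both without, by 24.8 points with Tet2 and 28.5 without it, and the interaction was 3.73 (SE 5.56). The Mx1-Cre transgene carries the Mx1 promoter, so its copies and the endogenous promoter cannot be told apart.

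Among neighbourhoods, those of Ccnd2, Cd28, Dusp2, Ebf1, Egln1, Hes1, Il6st, Ldb1, Lef1 and P2ry12 fell with p300 loss, and those of Eno1, Il1b, Itga2b, Kat6a, Mxi1, Ndrg1, Ppp1r15a and Tet2 rose. Ebf1, the B lineage factor, had a p300 difference of -9.14 with Tet2 present and -9.73 with Tet2 lost, and Hes1, a Notch target, -10.4 and -6.24. Egln1, the oxygen sensor that marks Hif1a for degradation, had -14.3 and -13.1. The Tet2 neighbourhood had 9.91 and 3.97, and Il1b, an inflammatory cytokine, 11.9 and 3.33 (interaction -8.61, SE 3.78). For Tet2 loss, the promoter of the chemokine Ccl3 was lower, with a difference of -11.2 with p300 present and -25.0 with p300 lost (interaction -13.8, SE 7.70). The neighbourhoods of Spi1, Cebpd and Hoxb1 were higher, with 6.90 and 5.29 at Spi1, the master regulator of myeloid fate. Limma called none of these for the interaction, with adjusted p from 0.904 to 0.999.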

How the data were processed

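Peaks of Omni-ATAC libraries from sorted mouse HSPCs were analysed in 16 libraries, 4 of each genotype. Per the submitters' processing notes, reads were trimmed with cutadapt 1.9.1, aligned to mm10 with Bowtie2 2.2.6 and called with MACS2 2.1.0. The roles of these tools follow the study's methods, in which the authors ran an ATAC-seq pipeline and called peaks in each library. The deposited lists give −log10 p and −log10 q values that the authors' peak caller computed for each summit. They also give a fold enrichment, the ratio of signal over local background as the authors deposited it. Read depth is unknown, and no read counts were used, so precision rests on the spread between libraries.

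Summits of the same interval were joined into 1 peak with its highest −log10 p, the strongest 50000 peaks were ranked, and peaks overlapping by at least 1 bp were merged. Regions in at least 4 lists were fitted with limma 3.58.1 (R 4.3.3; trend and robust options, deposit set as covariate, 11 residual degrees of freedom, Benjamini-Hochberg threshold 0.05). Single values per library were tested by exact permutation of the p300 labels within Tet2 background and set, which is conservative where p300 has an effect of its own. Genes came from GENCODE M21 and sequence from GRCm38, which is the sequence of mm10. Sequence matches were searched with BLAST 2.17.0 (e-value 1e-10), and tables were handled in Python 3.11.15 with pandas 2.3.3, numpy 2.4.6 and scipy 1.17.1. The scripts were tested on simulated data.

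Named regions had the 12 highest and 12 lowest moderated t with the same sign in both sets, and named genes the 8 highest and 8 lowest at each level, with the loci of the study and, for each gene list, the 2 members with the largest t in size. The design, the members and the gene lists were chosen with earlier results of these data known. Values without WT replicate 1, within each set for the single losses, and the classes of copied sequence were added after seeing the data. Replicate numbers did not pair the libraries. Some items are not reported here.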

Additional observations from a re-analysis of the deposited data

Results flagged for a closer look

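Of 264 groups of 4 libraries checked, 18 held a library far from the other 3 by Dixon's criterion, which chance alone gives in about 1 in 20 groups. WT replicate 1 accounted for 4. Its share of distal summits with an Ets string was 16.2%, and its rank was 4.13 near Sipa1l1, 43.3 near Pabpc1 and 52.6 near Btbd35f28. In groups whose other libraries were all at 0, any peak stands out. These were TET2KO replicate 2 near Cdrt4 (rank 4.59), TET2KO replicate 3 in Ntrk3 (5.52), P300KO replicate 2 (0.958) and TET2KO replicate 1 (0.677) near Sipa1l1, P300KO replicate 4 (6.34) and TET2KO replicate 1 (1.6) near Spag9, and P300KO_TET2KO replicate 1 near Btbd35f28 (21.2). P300KO replicate 2 had a rank of 16 near Irf2, where the other 3 had 0 to 2.60. TET2KO replicate 1 had 75.9 near Mlec, against 78.4 to 78.7. At the top of the scale, where ranks are tied closely, P300KO replicate 2 had 99.4 near Igf2bp3, WT replicate 4 had 99.4 near Cd209a and P300KO replicate 1 had 99.7 in Peak1. At promoters, P300KO replicate 3 had 78.3 at Paqr7 and P300KO replicate 1 had 54.2 at Mt3.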

How the results depend on the processing

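The count of regions with an interaction was 4 with windows around summits, 2 without trend and robust options and 6 in set 2 alone, and 0 to 2 when 1 library was left out (Gnb1l without P300KO replicate 2, and 9530002B09Rik and Peak1 without P300KO_TET2KO replicate 1). Promoters gave 2 in set 2 alone. With the replicate number as a block, 0 regions, 0 promoters and 0 neighbourhoods were called. The numbers did not pair the libraries, since correlations of same-numbered deviations ran from -0.0999 to 0.0588. With no called region there was no genotype pattern of called regions to recompute. Counts for p300 loss over both backgrounds were 0 in set 1, 2759 in set 2 and 2066 without WT replicate 1, and for Tet2 loss 12, 186 and 748. Without that library, single contrasts gave 582 (p300, Tet2 present), 189 (p300, Tet2 lost), 64 (Tet2, p300 present) and 399 (Tet2, p300 lost).

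The interaction in the distal share was -0.1 points with 30000 peaks, 2.42 with all peaks, -0.0195 with 1 kb, and -0.0365 to 0.739 with 1 library left out. For peak width the latter range was -4.38 to 66.6 bp. With 30000 peaks, Ets had 1.14, Runx 0.531 and Tal1 0.298. With all peaks, Ets had 0.0620 and Myb -0.0617, and Myb had -0.0395 with 50 bp. With 1 library left out, Ap1 ran from -0.277 to 0.177, Cebp from -0.908 to 0.172, Ctcf from -1.78 to -0.687, Ets from -1.52 to 1.26, Gata from -0.269 to 0.604, Runx from -1.12 to 0.720 and Tal1 from -0.0839 to 0.0379.

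Of 3594 alternative values of 153 named items, 3525 kept their direction and side of the threshold, 9 newly passed it and 60 reversed. Spag9 had -6.40 with all peaks and with absent peaks ranked in the full list. By fold enrichment, Gnb1l had 0.0035 and Alkbh8 0.0105. At promoters, set 1 gave Ep300 0.860, Hoxb1 3.88 and Ring1 -0.518, set 2 gave Hoxb2 10.1, Hoxb4 -1.08 and Bst2 0.371, and starts within 3 kb gave Hoxb3 13.9, Isg15 1.74, Mpo -3.77 and Cd27 1.37. At neighbourhoods, 80000 peaks gave Pabpc2 -4.65, Hoxb1 0.0650, Hoxb4 -2.84, Jak2 0.298, Prf1 -2.16, Kat6b 1.49, Car2 -1.52 and Itgb3 1.25, and 30000 peaks gave Tet2 1.78, Notch1 2.12, Lfng 0.424 and Mfng -0.510. There, set 2 gave Myb 1.59, Notch1 0.757, Dntt -2.53, Cd72 1.48, Mfng -1.76, Cd28 2.99, Ldha 1.70 and Lyz2 5.38, and set 1 gave Hoxb1 7.36 and Prf1 -1.83. With 1 library left out, promoters ran from -3.05 to 0.181 (Ep300), -16.9 to 6.11 (Hoxb1), -4.48 to 2.59 (Hoxb2) and -9.29 to 0.931 (Hoxb9). Neighbourhoods ran from -4.44 to 3.07 (Hoxb1), -1.36 to 7.42 (Hoxb4), -15.5 to 0.200 (Lyz2), -1.15 to 0.695 (Myb), -1.87 to 1.49 (Notch1) and -0.432 to 13.3 (Prf1). The cause of these changes was not tested.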
